A study of Homo sapiens with 12 samples.

Results

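The transcriptional response of SW48 cells to sgWRN2, a Cas9 guide RNA against WRN, was measured against sgCh2-2, a control guide that cuts an intergenic site on chromosome 2. SW48 is an established colorectal cancer cell line, and the cells carried Cas9 and were harvested 72 h after transduction with the guide. The comparison rests on 4 of the 12 RNA-seq libraries of the study, the 2 of SW48 cells with sgWRN2 and the 2 of SW48 cells with sgCh2-2. The 4 libraries were taken by their labels, and the libraries compared were chosen with earlier results of these data known. The 4 were set beside the 2 libraries of SW48 cells with a second WRN guide, sgWRN3. They were also set beside the ovarian cancer line OVK18 with sgWRN2 and with sgCh2-2, 2 libraries each. All groups share Cas9, transduction and the time of harvest, and neither an uncut nor an untransduced group was analysed here. The labels do not say whether the 2 libraries of a group came from separate cultures, so the p-values measure the spread between these libraries, which may be technical. Libraries were made from total RNA, and in such bulk samples fewer cells of a type and less RNA per cell cannot be told apart.

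WRN is a RecQ family helicase and exonuclease that unwinds unusual DNA structures at replication forks and in repair. Cells with microsatellite instability, the state that follows loss of DNA mismatch repair, depend on it, because repeats that have expanded in such cells stall forks and are broken when WRN is missing. DNA breaks activate the kinases ATM and ATR and, through them, the transcription factor p53. p53 raises genes for arrest, death and repair, among them CDKN1A, whose product p21 blocks cyclin-dependent kinases. Kinase inhibition leaves the pocket proteins bound to E2F factors and to the DREAM complex, which shuts genes of DNA replication and of mitosis through E2F sites and through the cell cycle genes homology region of their promoters.

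The gene counts of the 2 sgWRN2 libraries summed to 17144701 and 15423162, and those of the 2 sgCh2-2 libraries to 30752291 and 18301780. The sgWRN3 libraries held 16494023 and 16376019 counts, and the 4 OVK18 libraries used here 17600573 to 32581625. A gene's level is given as counts per 1000000 counts of its library (CPM) after TMM normalisation, a scaling that balances libraries of different composition, and 1 count was worth 0.0605 and 0.0638 CPM in the sgWRN2 libraries against 0.032 and 0.054 CPM in the sgCh2-2 libraries. The summed level of 34 intestinal epithelial markers, of which 23 were tested, was 3824 and 3894 CPM with sgWRN2. It was 3591 and 3128 CPM with sgWRN3 and 3372 and 2994 CPM with sgCh2-2, and lay between 130.7 and 165.8 CPM in the 4 OVK18 libraries used here. CDX2, the intestinal master regulator, stood at 77.2 and 81.2 CPM with sgWRN2, against 104 and 70.9 CPM with sgCh2-2. The floors of 3 counts and the counting intervals given below cover counting error only.

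The targeted transcript was lower in the cells given the guide. WRN stood at 37.2 and 34.1 CPM with sgWRN2, 42.3 and 56.9 CPM with sgWRN3 and 91.2 and 112 CPM with sgCh2-2. Both sgWRN2 libraries lay below both sgWRN3 libraries, and all 4 lay below both control libraries. In edgeR's quasi-likelihood test with Benjamini-Hochberg adjustment, WRN fell by 1.51 on the log2 scale with sgWRN2 (SE 0.16, adjusted p = 0.000461). With sgWRN3 its log2 fold change was -1.03 (adjusted p = 0.438), and between the guides it was -0.48 (adjusted p = 0.31). A cut gene can still be transcribed, so the level of the transcript does not measure the share of cells edited.

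In all, 437 of 14199 tested genes passed an adjusted p of 0.05 between sgWRN2 and sgCh2-2 (3.08%), 160 of them higher (1.13%) and 277 lower (1.95%) with sgWRN2. These genes are named called below. Without one library the count fell to 302 (sgCh2-2 A), 195 (sgCh2-2 B), 167 (sgWRN2 A) and 148 (sgWRN2 B), 112 genes were called in each of these 4 fits, and all 437 kept their direction. The 2 sgWRN2 and the 2 sgCh2-2 libraries did not overlap in any of the 437, a pattern that 21.6% (higher) and 17.2% (lower) of all tested genes also showed. Below, a named gene is marked only where it lost its call whichever of the 4 libraries was left out. A gene without that mark is not thereby stable. FAS, CDK1, CCNA2, CHEK1, BIRC3, RECQL, PPM1D, DCP1B, KIAA0247, FAM64A, MAP1B and EID1, among others, lost their calls in most of these fits. The median log2 fold change of all tested genes was 0.02. Few changes were large: among called genes with a mean of at least 5 CPM, 14 of 101 higher genes and 33 of 269 lower genes differed at least 2-fold. The higher calls held p53 targets, a set of genes near silent in control cells and a few adhesion and membrane genes, whereas 129 of the 277 lower calls (46.6%) stood on lists of mitotic, E2F, replication and double-strand break repair genes.

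**Figure D1:**
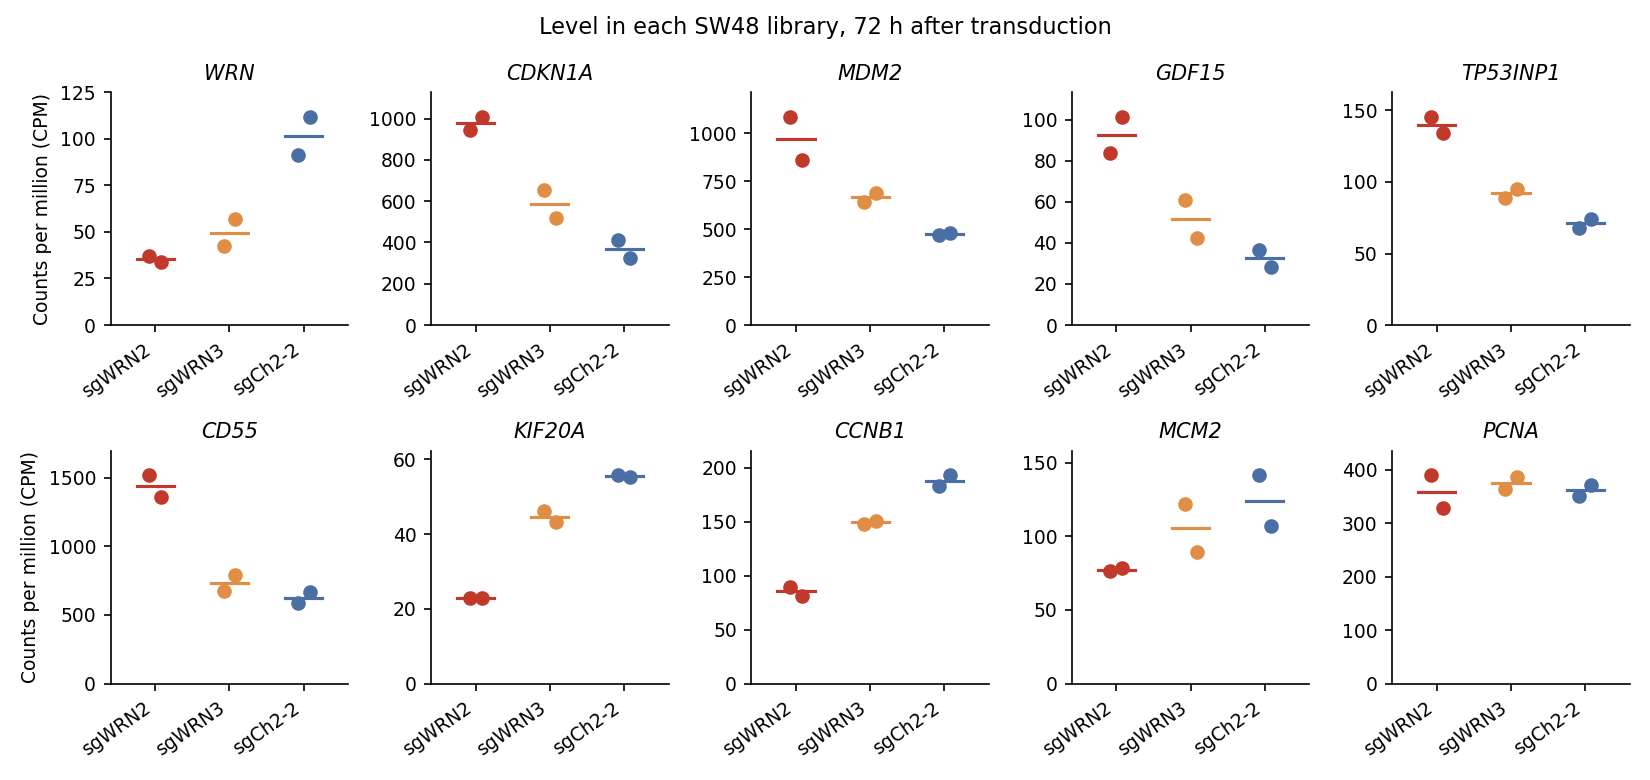
Level (CPM, linear axes from 0) of 10 genes in each of the 6 SW48 libraries, with points for libraries and bars for the mean of 2. The 2 sgWRN2 libraries lay apart from the 2 sgCh2-2 libraries in all panels except PCNA, and sgWRN3 lay between them in most.

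**Figure D2:**
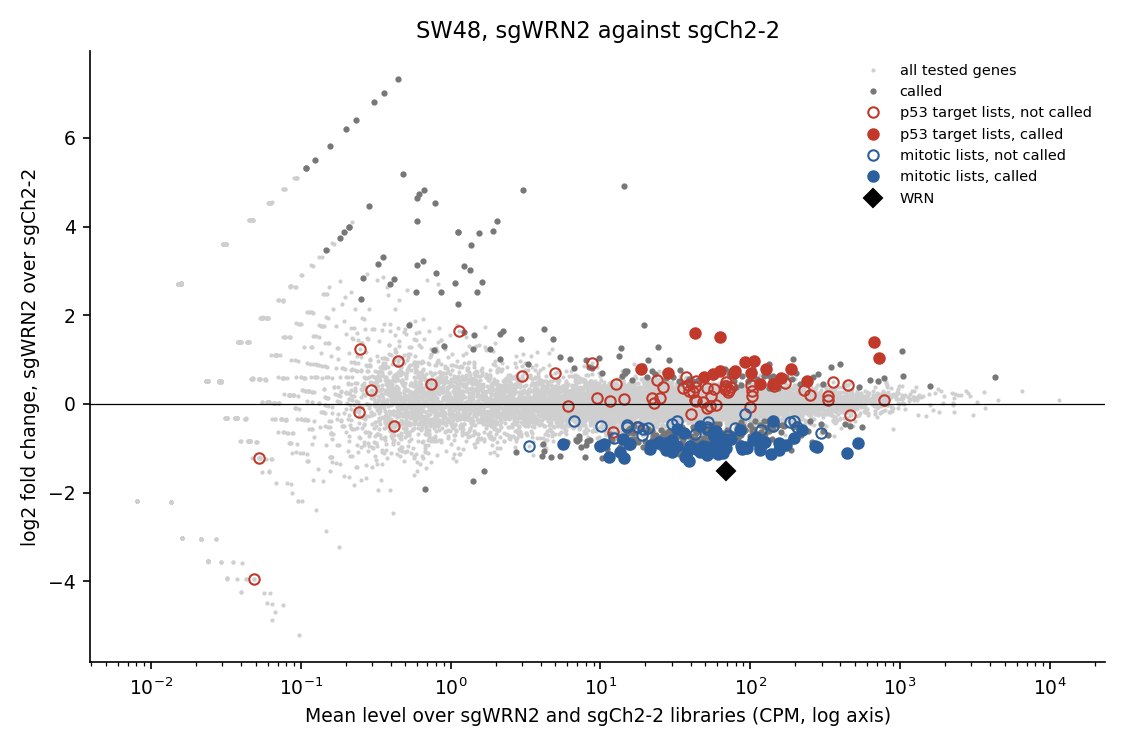
Log2 fold change of sgWRN2 over sgCh2-2 against the mean level (CPM, log axis) of the 14199 tested genes in SW48. Called p53 targets (filled red) lay above 0 and called mitotic genes (filled blue) lay below 0, and most of the largest fold changes belonged to genes of about 1 CPM or less, with NEFM an exception.

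Targets of p53 were among the genes that rose. Over 5 lists of p53 targets by role, 20 of 82 tested genes were called higher and 0 lower, against 1.13% and 1.95% of all tested genes, and 69 of the 82 had a log2 fold change above 0. Their median was 0.39, beside 0.02 for all tested genes. They made up 12.5% of the 160 higher calls. Without one library the count was 14 (sgCh2-2 A), 8 (sgCh2-2 B), 9 (sgWRN2 A) and 11 (sgWRN2 B), with 0 lower and a median of 0.31 to 0.38.

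The targets of cell cycle arrest had the largest share, with 5 of 12 called higher and 0 lower (median 0.55). CDKN1A, the gene of the kinase inhibitor p21, was at 945 and 1008 CPM with sgWRN2, 655 and 519 CPM with sgWRN3 and 412 and 326 CPM with sgCh2-2. The 3 groups did not overlap, with sgWRN2 highest and sgCh2-2 lowest, and CDKN1A rose with sgWRN2 (log2 fold change 1.40 ± 0.14, adjusted p = 0.00035). BTG2, an antiproliferative cofactor of mRNA deadenylation, had 162 and 161 CPM with sgWRN2, against 97.1 and 89.0 CPM with sgCh2-2 and rose (log2 fold change 0.79 ± 0.09, adjusted p = 0.00072). PLK2, a polo-like kinase induced by damage, rose to 249 and 223 CPM with sgWRN2, against 138 and 135 CPM with sgCh2-2 (log2 fold change 0.79 ± 0.09, adjusted p = 0.00076). A pair of further arrest genes rose: GADD45A, a stress sensor that binds PCNA, by 0.71 and PRDM1, a transcriptional repressor, by 0.69 on the log2 scale. CCNG1, a cyclin that p53 induces, did not pass the test (0.18, adjusted p = 0.766). GADD45A (adjusted p 0.0571 to 0.141) lost its call whichever of the 4 libraries was left out.

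Of the apoptosis targets, 4 of 20 were called higher and 0 lower (median 0.41). TP53INP1, a nuclear protein that promotes phosphorylation of p53, had 145 and 134 CPM with sgWRN2, 88.9 and 95.1 CPM with sgWRN3 and 68.0 and 74.0 CPM with sgCh2-2, with the 3 groups apart (log2 fold change 0.98 ± 0.14, adjusted p = 0.00233). FAS, the death receptor, had 109 and 89.7 CPM with sgWRN2, against 56.1 and 63.2 CPM with sgCh2-2 (log2 fold change 0.74 ± 0.14, adjusted p = 0.013). TNFRSF10D, a decoy receptor that binds TRAIL without signalling death, rose by 0.95 (adjusted p = 0.000347), whereas TNFRSF10B, the signalling TRAIL receptor, stood at 251 and 252 CPM with sgWRN2, against 206 and 201 CPM with sgCh2-2 and did not pass (0.31, adjusted p = 0.0862). BBC3, which encodes the BH3 protein PUMA, was at 23.4 and 24.0 CPM with sgWRN2, against 15.6 and 11.6 CPM with sgCh2-2 and passed narrowly (adjusted p = 0.0499). Its BH3 relative PMAIP1 had 25.9 and 19.97 CPM with sgWRN2, against 17.6 and 24.3 CPM with sgCh2-2 with overlapping libraries, and BAX, the pore former of the outer mitochondrial membrane, had 76.0 and 80.3 CPM with sgWRN2, against 67.9 and 49.9 CPM with sgCh2-2 (adjusted p = 0.425). BBC3 (adjusted p 0.0604 to 0.401) lost its call whichever of the 4 libraries was left out.

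Of the genes that act back on p53, 2 of 9 were called higher and 0 lower, and the median of this list was -0.05. MDM2, the ubiquitin ligase that degrades p53, stood at 1084 and 858 CPM with sgWRN2, 642 and 689 CPM with sgWRN3 and 472 and 480.2 CPM with sgCh2-2. Both sgWRN2 libraries were above the other 4 (log2 fold change 1.03 ± 0.15, adjusted p = 0.00245). PPM1D, a phosphatase that turns off the damage response, rose by 0.75 (adjusted p = 0.0118). In the list of repair and metabolism, 3 of 14 were higher and 0 lower (median 0.31). They were XPC, which recognises lesions in nucleotide excision repair (0.58), POLH, the translesion polymerase eta (0.44), and SESN1, a sestrin that restrains mTORC1 (0.61). RRM2B, the p53-induced ribonucleotide reductase subunit (0.48, adjusted p = 0.255), and DDB2, a partner of XPC in lesion recognition (0.33, adjusted p = 0.257), did not pass. POLH (adjusted p 0.081 to 0.172) and SESN1 (adjusted p 0.0996 to 0.165) lost their calls whichever of the 4 libraries was left out.

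Among 28 other p53 targets, 6 were called higher and 0 lower (median 0.41). ABCA12, a lipid transporter of the epidermal barrier, was at 66.7 and 61.9 CPM with sgWRN2, 33.7 and 34.3 CPM with sgWRN3 and 22.7 and 19.7 CPM with sgCh2-2, and the 3 groups stood apart (log2 fold change 1.60 ± 0.15, adjusted p = 0.00035). GDF15, a secreted cytokine of the TGF-beta family, was at 83.7 and 101 CPM with sgWRN2, 61.1 and 42.6 CPM with sgWRN3 and 36.4 and 28.5 CPM with sgCh2-2, again without overlap (log2 fold change 1.51 ± 0.20, adjusted p = 0.0018). The other 4 were DCP1B, a decapping factor (0.69), KIAA0247 (0.67), CYFIP2 (0.51) and IER5 (0.45). GDF15 was the only 1 of 13 tested secreted growth arrest factors to be called (median 0.48), and the BCL2 family and caspases had 2 called higher of 30, BBC3 and BIRC3, with a median of 0.10. IER5 (adjusted p 0.148 to 0.305) lost its call whichever of the 4 libraries was left out.

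**Figure D3:**
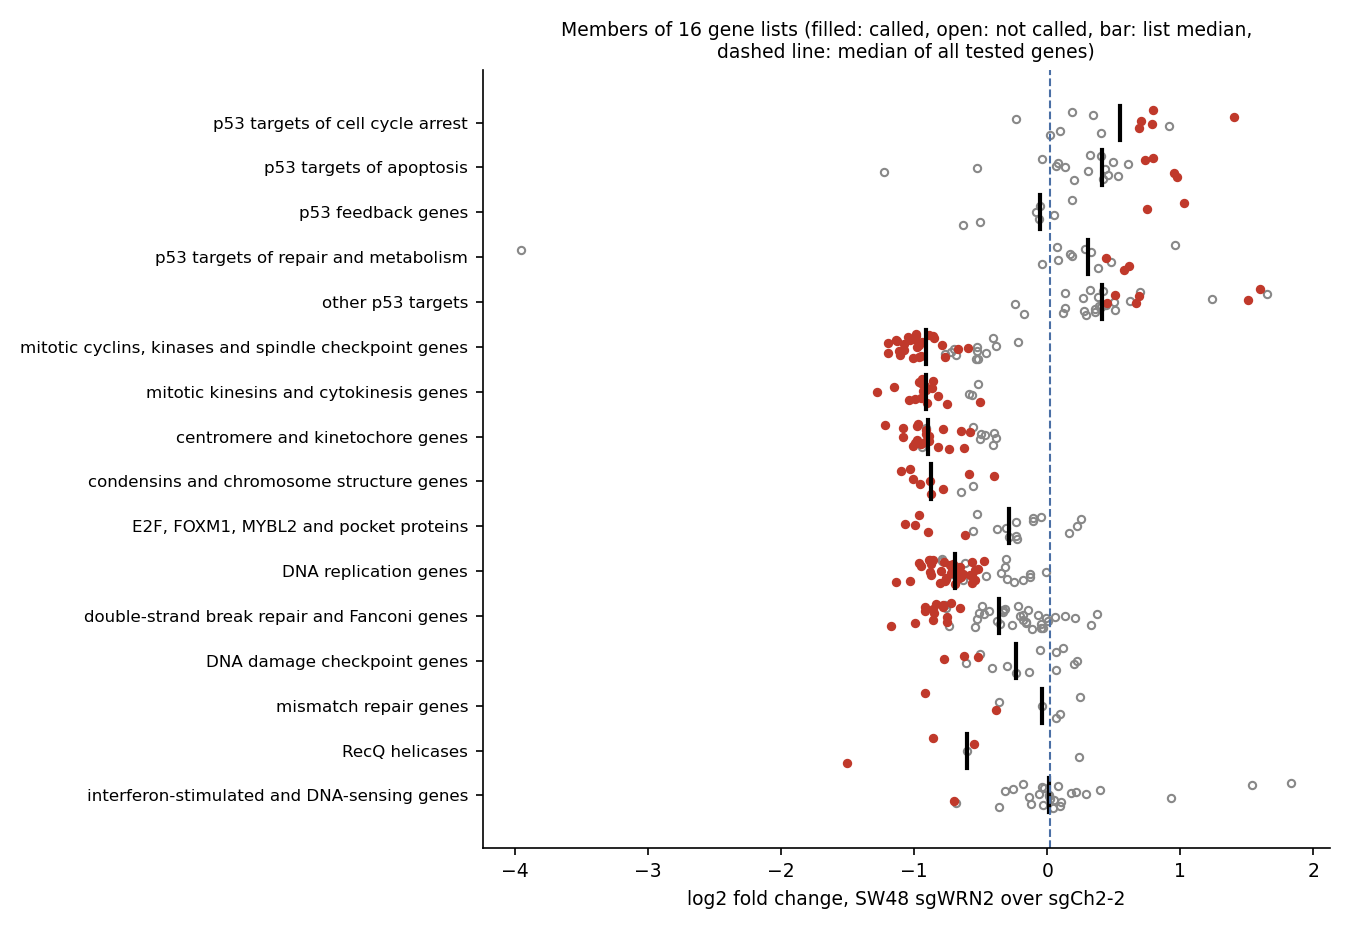
Log2 fold change of sgWRN2 over sgCh2-2 in SW48 for the tested members of 16 gene lists, with filled points for called genes, bars for list medians and a dashed line at the median of all tested genes (0.02). The 5 p53 lists held 20 called members, all above 0, and the 4 mitotic lists held 73, all below 0.

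Most mitotic genes fell. Over 4 mitotic lists, 73 of 99 tested genes were called lower and 0 higher, against 1.95% lower calls among all tested genes, and all 99 had a log2 fold change below 0. The median was -0.90. These 73 genes made up 26.4% of the lower calls. Without one library the count was 67 (sgCh2-2 A), 52 (sgCh2-2 B), 49 (sgWRN2 A) and 35 (sgWRN2 B), with 0 higher and a median of -0.97 to -0.82.

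Cyclins, kinases and the spindle checkpoint held 26 lower calls of 38 (median -0.91). CCNB1, the B cyclin that drives entry into mitosis, was at 89.7 and 81.6 CPM with sgWRN2, 148 and 151 CPM with sgWRN3 and 183 and 193 CPM with sgCh2-2. The groups did not overlap, and the sgWRN2 libraries were the lowest (log2 fold change -1.13 ± 0.10, adjusted p = 0.000257). Its catalytic partner CDK1 was at 82.8 and 74.9 CPM with sgWRN2, against 131 and 178 CPM with sgCh2-2 (log2 fold change -0.97 ± 0.18, adjusted p = 0.0129). AURKA and AURKB, the kinases of the spindle poles and of the chromosomal passenger complex, fell by 0.99 and 0.89 on the log2 scale. The passenger subunits BIRC5 (-0.99) and CDCA8 (-1.08) were lower too. PLK1, the polo kinase of mitosis, had 34.4 and 32.9 CPM with sgWRN2, against 75.7 and 68.9 CPM with sgCh2-2 (log2 fold change -1.10 ± 0.13, adjusted p = 0.000735). CDC20, which activates the anaphase-promoting complex, had 36.9 and 39.3 CPM with sgWRN2, against 90.5 and 76.3 CPM with sgCh2-2 (log2 fold change -1.13 ± 0.14, adjusted p = 0.000891), and BUB1, a kinase of the spindle checkpoint that holds CDC20 back, fell by 1.05. CCNA2, CCNB2, NEK2 and CDCA3 were lower by 1.0, 1.03, 1.20 and 1.20. AURKB (adjusted p 0.067 to 0.189) lost its call whichever of the 4 libraries was left out.

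Of 20 kinesins and cytokinesis genes, 17 were lower (median -0.91). KIF20A, the kinesin that carries passengers to the midzone, was at 22.8 and 22.8 CPM with sgWRN2, 46.1 and 43.2 CPM with sgWRN3 and 55.7 and 55.2 CPM with sgCh2-2. Both sgWRN2 libraries lay below the other 4, and KIF20A had the lowest log2 fold change of the mitotic genes (log2 fold change -1.28 ± 0.12, adjusted p = 0.000268). KIF14 (-1.15), KIF4A (-1.0), KIF2C (-0.95), KIF11 (-0.92) and PRC1, which bundles midzone microtubules (-0.90), also fell. Centromere and kinetochore genes had 21 lower calls of 30 (median -0.90). CENPA, the histone H3 variant that marks centromeres, had 7.99 and 9.38 CPM with sgWRN2, against 19.2 and 21.3 CPM with sgCh2-2 (log2 fold change -1.22 ± 0.17, adjusted p = 0.0018), and HJURP, the chaperone that deposits it, had 23.6 and 25.1 CPM with sgWRN2, against 51.6 and 51.6 CPM with sgCh2-2 (log2 fold change -1.08 ± 0.11, adjusted p = 0.000396). CENPF (-0.98) and CENPI (-1.09) were among the others. Condensins and chromosome structure genes had 9 lower calls of 11 (median -0.88). MKI67, the proliferation antigen that coats mitotic chromosomes, had 284 and 279 CPM with sgWRN2, against 601 and 608 CPM with sgCh2-2 (log2 fold change -1.10 ± 0.09, adjusted p = 0.000227), and TOP2A, the topoisomerase that decatenates sister chromatids, had 391 and 353 CPM with sgWRN2, against 636 and 731 CPM with sgCh2-2 (log2 fold change -0.88 ± 0.13, adjusted p = 0.00317). The condensin subunits NCAPH (-0.95), NCAPG (-1.01) and NCAPG2 (-0.88) fell with them. FAM64A (-1.22) and ARHGEF39 (-1.19), which stand on none of these lists, were among the 12 lowest called genes of at least 5 CPM.

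Promoters of the mitotic genes were read for the letters TTTGAA or TTCAAA, the same word on either strand, which form the core of the cell cycle genes homology region. Sequences are those of RefSeq on GRCh38.p14, from 250 bases before the annotated start to 50 after it, found by symbol for 83 of the 99 tested mitotic genes. The word occurred in 52 of these 83 (62.7%), in 1 of 47 tested replication genes (2.13%), in 6 of 65 tested p53 targets (9.23%) and in 5324 of all 35116 promoters of the table (15.2%). Of all tested genes with a promoter, 1081 of 11180 held it (9.67%). It was present in 77 of 230 genes called lower (33.5%), in 34 of the 166 of these that stand on none of the mitotic lists (20.5%), and in 14 of 130 genes called higher (10.8%). A match is a description of the letters and not a mapped binding site. The last 90 bases before the start are printed, 5′ to 3′ in the direction of the gene, for 6 called mitotic genes in which the word lies in that stretch, with the word in capitals; the stretch of CCNB1, BUB1, AURKB and KIF2C did not hold it.
CCNB2, chr15:59105056-59105145, plus strand: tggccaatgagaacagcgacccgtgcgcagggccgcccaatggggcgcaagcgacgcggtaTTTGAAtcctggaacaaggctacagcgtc
CDC20, chr1:43358891-43358980, plus strand: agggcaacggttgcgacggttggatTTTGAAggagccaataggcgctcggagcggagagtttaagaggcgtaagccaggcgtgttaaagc
CENPA, chr2:26785966-26786055, plus strand: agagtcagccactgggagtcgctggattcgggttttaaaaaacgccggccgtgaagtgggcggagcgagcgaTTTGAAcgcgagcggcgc
PLK1, chr16:23678799-23678888, plus strand: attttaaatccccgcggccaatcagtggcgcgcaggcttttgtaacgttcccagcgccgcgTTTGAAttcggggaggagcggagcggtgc
MKI67, chr10:128126424-128126513, minus strand: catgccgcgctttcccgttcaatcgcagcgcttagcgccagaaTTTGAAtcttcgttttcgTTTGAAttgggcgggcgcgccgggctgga
CDCA8, chr1:37692426-37692515, plus strand: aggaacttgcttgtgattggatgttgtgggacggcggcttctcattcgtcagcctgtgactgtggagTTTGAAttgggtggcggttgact

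Factors that govern these genes were partly lower themselves. Of 19 tested members of the E2F, FOXM1, MYBL2 and pocket protein list, 5 were called lower and 0 higher (median -0.29). FOXM1, the activator of mitotic genes, had 60.5 and 60.9 CPM with sgWRN2, against 128 and 114 CPM with sgCh2-2 (log2 fold change -0.99 ± 0.12, adjusted p = 0.000978). MYBL2, its partner in the MMB complex (-0.90), the atypical E2F8 (-1.07), the activator E2F2 (-0.97) and RBL1, the pocket protein p107 (-0.62), were the other 4. E2F1 stood at 15.4 and 19.4 CPM with sgWRN2, against 26.3 and 23.8 CPM with sgCh2-2 and did not pass (adjusted p = 0.191). MYBL2 (adjusted p 0.0659 to 0.268) lost its call whichever of the 4 libraries was left out.

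Most DNA replication genes fell too. Of 55 tested, 37 were called lower and 0 higher (median -0.69), and without one library 30 (sgCh2-2 A), 23 (sgCh2-2 B), 17 (sgWRN2 A) and 12 (sgWRN2 B) were. The licensing factor CDC6, which loads the MCM helicase, had 54.8 and 46.8 CPM with sgWRN2, against 92.8 and 94.9 CPM with sgCh2-2 (log2 fold change -0.89 ± 0.12, adjusted p = 0.00197). The helicase subunits MCM4 (-0.71), MCM7 (-0.70) and MCM3 (-0.52) fell, and MCM2 had 76.2 and 78.5 CPM with sgWRN2, against 141 and 107 CPM with sgCh2-2 without passing (-0.68, adjusted p = 0.0636). GINS2, a subunit of the GINS complex that completes the active helicase, had 24.4 and 23.9 CPM with sgWRN2, against 47.9 and 45.1 CPM with sgCh2-2 (log2 fold change -0.95 ± 0.12, adjusted p = 0.000938). Of the enzymes that supply nucleotides, RRM2, the S phase subunit of ribonucleotide reductase, had 126 and 119 CPM with sgWRN2, against 242 and 261 CPM with sgCh2-2 (log2 fold change -1.03 ± 0.11, adjusted p = 0.000461), TYMS fell by 0.57 and TK1 by 1.13. UHRF1, which maintains methylation at forks (-0.81), and DTL, which marks CDT1 for destruction (-0.88), fell too. PCNA, the sliding clamp and also a p53 target, had 389 and 328 CPM with sgWRN2, against 351 and 373 CPM with sgCh2-2, with the control libraries between the 2 sgWRN2 libraries (-0.01, adjusted p = 1). TICRR, which helps to fire origins and is on none of the lists, had 19.0 and 20.9 CPM with sgWRN2, against 36.2 and 35.8 CPM with sgCh2-2 (log2 fold change -0.85 ± 0.12, adjusted p = 0.00221). TK1 (adjusted p 0.0736 to 0.341) lost its call whichever of the 4 libraries was left out.

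Some promoters of the replication genes held another word. The letters TTTGGCGC, TTTCCCGC, TTTGCCGC and TTTCGCGC and their reverse complements, forms of the E2F site chosen after the mitotic word had been counted, occurred in 20 of 47 promoters of tested replication genes (42.6%) and in 15 of 33 of those called (45.5%). They occurred in 5 of 83 mitotic promoters (6.02%), in 1164 of all promoters (3.31%), in 585 of the 11180 of tested genes (5.23%), in 50 of 230 genes called lower (21.7%) and in 8 of 130 called higher (6.15%). No E2F word here contains a mitotic word. For 5 called replication genes the same stretch of 90 bases is printed with the E2F letters in capitals. The stretch of CDC6 and RRM2 held none of these exact words, which do not cover every form of the E2F site.
GINS2, chr16:85688955-85689044, minus strand: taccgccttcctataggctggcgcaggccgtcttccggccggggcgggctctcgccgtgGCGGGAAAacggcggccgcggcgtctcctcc
UHRF1, chr19:4909411-4909500, plus strand: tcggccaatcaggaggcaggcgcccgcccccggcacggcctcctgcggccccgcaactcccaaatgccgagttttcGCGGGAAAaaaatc
TYMS, chr18:657563-657652, plus strand: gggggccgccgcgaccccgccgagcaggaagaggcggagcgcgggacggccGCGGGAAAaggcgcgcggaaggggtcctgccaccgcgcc
MCM7, chr7:100101398-100101487, minus strand: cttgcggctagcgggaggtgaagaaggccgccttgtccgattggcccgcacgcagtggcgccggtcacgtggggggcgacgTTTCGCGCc
DTL, chr1:212035658-212035747, plus strand: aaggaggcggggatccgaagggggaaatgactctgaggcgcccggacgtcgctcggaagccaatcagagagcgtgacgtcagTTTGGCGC

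Repair genes were lower in part. Of 48 tested genes of double-strand break repair and the Fanconi pathway, 14 were called lower and 0 higher (median -0.36). FANCI (-0.92) and FANCD2 (-0.86), which clamp together on DNA at crosslinks, BRCA1, which starts homologous recombination (-0.84), EXO1, a resecting nuclease (-0.92), RAD54L, a motor of strand exchange (-0.99), and TRAIP, a ligase of stalled replisomes (-1.17), were among them. BRCA1 had 32.9 and 35.7 CPM with sgWRN2, against 58.5 and 64.3 CPM with sgCh2-2, with no overlap between the guides (adjusted p = 0.00252). BRCA2, which acts in homologous recombination, had a log2 fold change of -0.77 (adjusted p = 0.0757).

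Of 15 damage checkpoint genes, CLSPN (-0.78), which brings CHEK1 to stalled forks, and the kinases CHEK1 (-0.63) and CHEK2 (-0.52) were called lower and 0 higher (median -0.24). The kinases above them did not pass: ATM had 69.3 and 86.1 CPM with sgWRN2, against 58.7 and 84.6 CPM with sgCh2-2 and ATR had 155 and 154 CPM with sgWRN2, against 147 and 174 CPM with sgCh2-2. Of 7 tested mismatch repair genes, EXO1 and MSH6 (-0.38) were lower and 0 higher (median -0.04). Of the 5 RecQ helicases, WRN, BLM and RECQL were called lower (median -0.60), and the count and median include WRN, the target of the guide. BLM, which dissolves double Holliday junctions, had 28.1 and 28.7 CPM with sgWRN2, 41.7 and 53.6 CPM with sgWRN3 and 51.4 and 51.6 CPM with sgCh2-2 (log2 fold change -0.86 ± 0.14, adjusted p = 0.00453), and RECQL had 51.0 and 41.0 CPM with sgWRN2, against 61.7 and 73.1 CPM with sgCh2-2 (-0.55). RECQL4, which acts in the start of replication, had 15.2 and 20.9 CPM with sgWRN2, against 28.6 and 26.1 CPM with sgCh2-2 (adjusted p = 0.224) and RECQL5 had 12.4 and 15.4 CPM with sgWRN2, against 12.3 and 11.3 CPM with sgCh2-2 (adjusted p = 0.684). CHEK2 (adjusted p 0.111 to 0.307) and MSH6 (adjusted p 0.0729 to 0.243) lost their calls whichever of the 4 libraries was left out.

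Inhibitors of the cell cycle and G1 cyclins moved in both directions, with 2 of 17 called higher and 2 lower (median -0.31). CDKN1A and CCND1, a D cyclin, were higher. CCND1 had 952 and 914 CPM with sgWRN2, 794 and 702 CPM with sgWRN3 and 606 and 642 CPM with sgCh2-2 (log2 fold change 0.58 ± 0.09, adjusted p = 0.00435). CDK2, the kinase of cyclins E and A, had 49.7 and 49.5 CPM with sgWRN2, against 81.0 and 79.2 CPM with sgCh2-2 (log2 fold change -0.69 ± 0.10, adjusted p = 0.00311), and CDKN2C, the INK4 inhibitor p18, was lower by 1.03. The summed level of the 38 mitotic cyclin, kinase and checkpoint genes was 1949 and 1791 CPM with sgWRN2, 2648 and 2835 CPM with sgWRN3 and 3107 and 3367 CPM with sgCh2-2, and that of the 55 replication genes was 3775 and 3548 CPM with sgWRN2, 4876 and 4881 CPM with sgWRN3 and 5387 and 5383 CPM with sgCh2-2.

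A separate set of genes was near silent in control cells and present with sgWRN2. Of the 160 genes called higher, 51 stood under 1 CPM in both sgCh2-2 libraries, out of 2338 tested genes at such levels (2.18%). A gene at these levels has hardly any room to be called lower, and in a fit of the 6 SW48 libraries alone only 31 of the 51 passed the filter on low counts, so that neither the count nor its direction is support. In 24 of the 51 both sgWRN2 libraries were at 1 CPM or more, and 9 had 0 counts in both controls. In all 51 both sgWRN2 libraries stood above both sgWRN3 libraries, and in 21 both sgWRN3 libraries stood above both sgCh2-2 libraries. Between the guides 26 were called, against 0.289% of all tested genes called higher with sgWRN2. The 51 were chosen for high sgWRN2 and low sgCh2-2 levels, which favours each of these patterns. The shares of all tested genes that did not overlap in these ways were not counted, so the counts are no support. Without one library 21 (sgCh2-2 A), 28 (sgCh2-2 B), 21 (sgWRN2 A) and 29 (sgWRN2 B) of these were called, and 24 of the 31 in the fit of the SW48 libraries alone.

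NEFM, the medium subunit of neurofilaments, lay just above this range and had the largest log2 fold change of the called genes with a mean of at least 5 CPM. It stood at 34.5 and 21.2 CPM with sgWRN2, 2.68 and 1.87 CPM with sgWRN3 and 1.03 and 0.756 CPM with sgCh2-2, so that every sgWRN2 library exceeded every other SW48 library (log2 fold change 4.92 ± 0.31, adjusted p = 3.43e-05). The BEX genes encode small adaptor proteins and lie together on the X chromosome. A list of BEX, NGFRAP1 and related genes had 4 of 9 tested members called higher and 0 lower (median 0.19). The 4 were BEX4, NGFRAP1, BEX1 and BEX2, and the count and median are those of the list and not of the BEX family. BEX4 had 7.14 and 4.59 CPM with sgWRN2, 0.596 and 0.543 CPM with sgWRN3 and 0.224 and 0.162 CPM with sgCh2-2, or 190 counts over both sgWRN2 libraries against 10 over both sgCh2-2 libraries, a 29.4-fold ratio of pooled levels (adjusted p = 9.61e-05). NGFRAP1, also called BEX3, had 49 counts with sgWRN2 against 3 with sgCh2-2, a ratio of 25.2 with a 95% counting interval of 8.15 to 127. BEX1 had 15 counts with sgWRN2 and 0 with sgCh2-2, at least 7.73-fold higher against a floor of 3 counts over the group, and BEX2 had 3.15 and 1.34 CPM with sgWRN2, against 0.352 and 0.108 CPM with sgCh2-2.

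Other near-silent genes served unlike functions. CBS, which makes cystathionine from homocysteine, had 4.36 and 2.93 CPM with sgWRN2, 0.895 and 0.482 CPM with sgWRN3 and 0.320 and 0.108 CPM with sgCh2-2 (118 against 12 counts, ratio 15.2, adjusted p = 0.00035). EID1, an inhibitor of differentiation that binds p300, had 5.33 and 2.42 CPM with sgWRN2, 0.298 and 0.121 CPM with sgWRN3 and 0.320 and 0.0540 CPM with sgCh2-2, with the 2 sgWRN2 libraries differing more than 2-fold from each other (126 against 11 counts, ratio 17.7, adjusted p = 0.0104). FAM101B and HDGFRP3 each had 69 against 7 counts, a ratio of 15.2. GALNT13, a glycosyltransferase that starts O-glycans, had 39 against 2 counts (ratio 30.1, counting interval 7.80 to 258), and C2orf74 had 37 against 2 (ratio 28.6, 7.38 to 245). VIM, the intermediate filament of mesenchymal cells, had 2.24 and 1.47 CPM with sgWRN2, against 0.320 and 0.486 CPM with sgCh2-2 (log2 fold change 2.25 ± 0.38, adjusted p = 0.00584), and COL4A2, a basement membrane collagen, had 1.27 and 0.893 CPM with sgWRN2, against 0.160 and 0.0540 CPM with sgCh2-2 (log2 fold change 3.13 ± 0.61, adjusted p = 0.0185). The mirror pattern, at least 1 CPM in both controls and under 1 CPM in both sgWRN2 libraries, was called in 3 genes, RHEBL1, MGC32805 and GPR19, none of which stood above 2.53 CPM in a control library. COL4A2 (adjusted p 0.077 to 0.184), MGC32805 (adjusted p 0.127 to 0.256) and RHEBL1 (adjusted p 0.136 to 0.301) lost their calls whichever of the 4 libraries was left out.

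Of the 51 near-silent genes, 29 had a mean of at least 10 CPM in the OVK18 sgCh2-2 libraries. Among them were NGFRAP1 at 183 and 183 CPM, EID1 at 273 and 319 CPM and CBS at 175 and 166 CPM. The filter on low counts used all 6 groups, so a gene near silent in SW48 could be tested through its OVK18 level. In the 6 SW48 libraries alone, 31 of the 51 passed it. The share at 10 CPM or more among the 2338 tested near-silent genes was not counted, so 29 of 51 cannot be read as a trait of the risen genes. A further sum took the 232 genes with at least 20 CPM in OVK18 controls and under 0.15 CPM in SW48 controls. Their summed level in the sgWRN2 libraries of SW48 was 0.11% and 0.0785% of that in OVK18 controls. It was 0.037% and 0.0371% with sgWRN3 and 0.0282% and 0.0258% with sgCh2-2. The genes were chosen by their low level in the sgCh2-2 libraries, so the sgCh2-2 share was held low in advance. Of the 51, 6 were also called higher with sgWRN2 in OVK18, against 0.535% of all tested genes. These were COL4A2, GALNT13, TG, CCDC8, CCDC181 and SH3GL3, and all stood under 1 CPM in both OVK18 controls too. A gene near silent in the controls of both lines could pass the filter through its sgWRN2 levels, so this count is no support. The part of RNA or reads from OVK18 in these levels was not tested. Of 17 fibroblast and mesenchymal markers, 11 were tested and 0 called (median 0.19). All 17 summed to 50.2 and 48.6 CPM with sgWRN2, 41.1 and 39.4 CPM with sgWRN3 and 37.1 and 29.6 CPM with sgCh2-2.

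**Figure D4:**
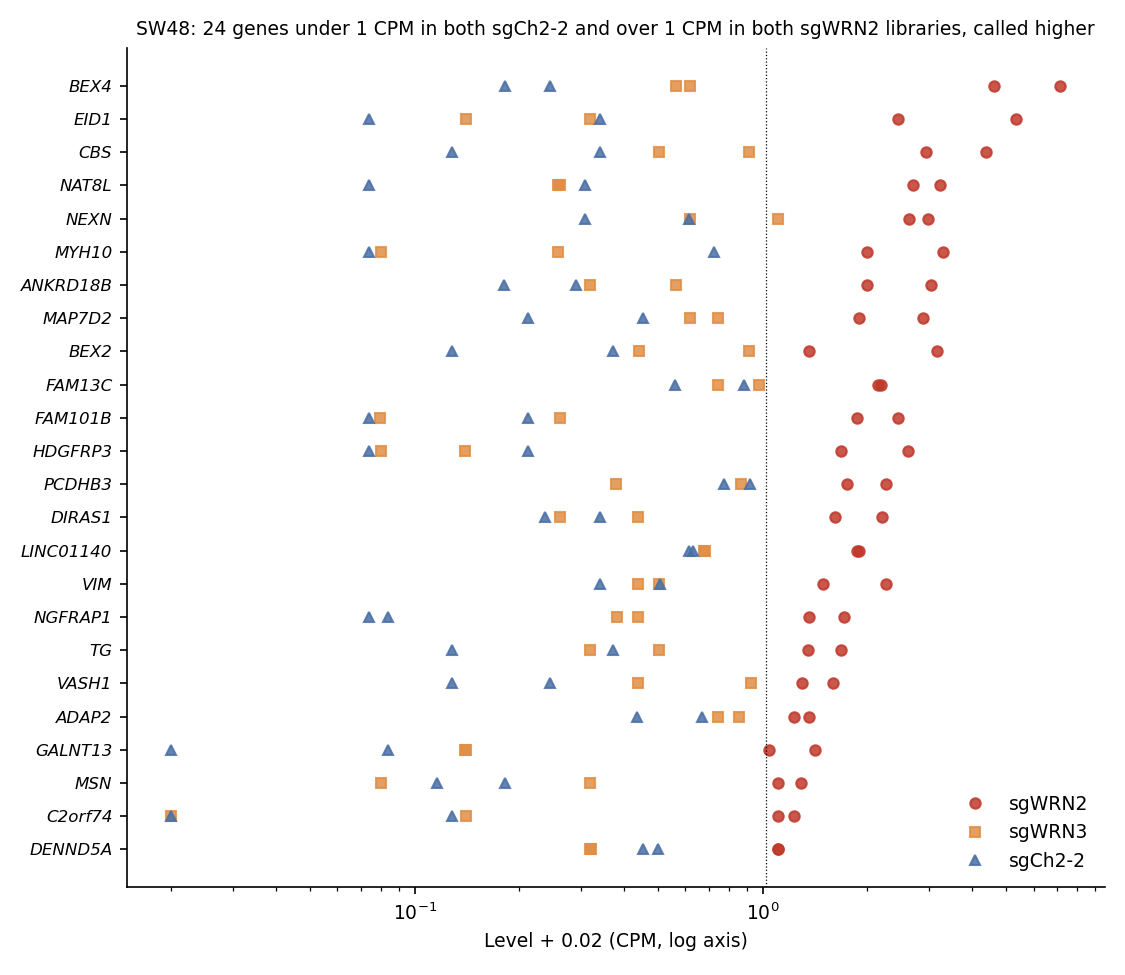
Level plus 0.02 (CPM, log axis) in the 6 SW48 libraries of the 24 genes under 1 CPM in both sgCh2-2 libraries, at 1 CPM or more in both sgWRN2 libraries and called higher. The sgWRN2 libraries (circles) lay to the right of the dotted line at 1 CPM, and the sgWRN3 libraries (squares) lay near the sgCh2-2 libraries (triangles) for most genes.

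Among the more abundant genes outside the p53 and cell cycle lists, some adhesion and surface genes were higher. CD55, which speeds the decay of complement convertases on the cell surface, had 1516 and 1362 CPM with sgWRN2, 678 and 791 CPM with sgWRN3 and 587 and 665 CPM with sgCh2-2. Both sgWRN2 libraries were above the other 4 (log2 fold change 1.20 ± 0.11, adjusted p = 0.000257), and none of the other 4 tested complement regulators was called (median of the 5, 0.11). Of 20 laminins and basement membrane genes, 4 were called higher and 0 lower (median 0.36). LAMC1, the gamma chain of most laminins, had 535 and 499 CPM with sgWRN2, 325 and 299 CPM with sgWRN3 and 291 and 261 CPM with sgCh2-2 (log2 fold change 0.91 ± 0.09, adjusted p = 0.00035), LAMA3 had 107 and 107 CPM with sgWRN2, against 70.7 and 66.8 CPM with sgCh2-2 (0.64) and COL17A1, the hemidesmosomal collagen, had 1189.8 and 1340.2 CPM with sgWRN2, against 838 and 806 CPM with sgCh2-2 (0.62). The fourth was COL4A2. LAMC3, a gamma chain outside the list, rose to 6.41 and 8.23 CPM with sgWRN2, against 4.04 and 2.92 CPM with sgCh2-2 (log2 fold change 1.05 ± 0.25, adjusted p = 0.0402). LAMC3 (adjusted p 0.0839 to 0.342) lost its call whichever of the 4 libraries was left out.

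Desmosome and cornified barrier genes had 3 of 23 called higher and 0 lower (median 0.21), ABCA12, the desmosomal cadherin DSC2 with 475 and 415 CPM with sgWRN2, against 223 and 274 CPM with sgCh2-2 (0.84), and DSG3 (0.69). PVRL4, the cell adhesion molecule nectin-4, had 32.5 and 35.7 CPM with sgWRN2, 23.0 and 21.8 CPM with sgWRN3 and 14.5 and 13.6 CPM with sgCh2-2 (log2 fold change 1.28 ± 0.15, adjusted p = 0.00076), and HES2, a repressor of the HES family, had 18.0 and 18.2 CPM with sgWRN2, against 8.71 and 8.27 CPM with sgCh2-2 (log2 fold change 1.09 ± 0.15, adjusted p = 0.00226). AKAP12, a scaffold of protein kinase A, had 266 and 250.1 CPM with sgWRN2, 128 and 132 CPM with sgWRN3 and 127 and 130.2 CPM with sgCh2-2, with sgWRN3 at the level of sgCh2-2 (log2 fold change 1.01 ± 0.09, adjusted p = 0.000268). ZNF596, a zinc finger gene, had 20.6 and 18.4 CPM with sgWRN2, 8.89 and 10.8 CPM with sgWRN3 and 8.91 and 7.35 CPM with sgCh2-2 (log2 fold change 1.25 ± 0.17, adjusted p = 0.00164). MAP1B, a microtubule-associated protein of neurons, rose by 1.04 (adjusted p = 0.00661). FLG-AS1, an antisense transcript of the filaggrin region, had 32.0 and 28.7 CPM with sgWRN2, against 8.62 and 9.18 CPM with sgCh2-2 (log2 fold change 1.77 ± 0.15, adjusted p = 0.000272), and since no source used here says that counting used strand, its reads and those of genes on the other strand cannot be told apart. AGO2, the slicing argonaute, had 95.6 and 87.3 CPM with sgWRN2, 57.1 and 54.9 CPM with sgWRN3 and 54.8 and 54.5 CPM with sgCh2-2 (log2 fold change 0.74 ± 0.09, adjusted p = 0.00107), the only call among 13 argonaute and microRNA processing genes (median -0.02). DSG3 (adjusted p 0.147 to 0.301) lost its call whichever of the 4 libraries was left out.

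In the signalling and stress lists at most 3 members passed in a direction, so the shares rest on few genes. Among all tested genes 1.13% were called higher and 1.95% lower. In the lists from Wnt targets to histone genes, the share called higher ran from 2.94% to 11.8%. The share called lower was 10.7% for ATF4 genes, 2.94% for glycolysis and hypoxia genes, 17.6% for histone genes and 0 for the others. Wnt targets had 2 of 20 higher, CCND1 and SOX9 with 341 and 294 CPM with sgWRN2, against 195 and 221 CPM with sgCh2-2 (median 0.10). NF-kB targets had 1 of 12 higher, BIRC3, an inhibitor of apoptosis with 29.5 and 26.0 CPM with sgWRN2, against 11.1 and 17.0 CPM with sgCh2-2 (median 0.22). Immediate-early genes had 2 of 26 higher, IER3 (0.53) and IER5 (median 0.12), and EGR1, an immediate-early zinc finger factor, had 455 and 439 CPM with sgWRN2, against 427 and 422 CPM with sgCh2-2 (0.07, adjusted p = 0.827). ATF4 amino acid stress genes had CBS higher and 3 of 28 lower (median -0.15): ASNS, asparagine synthetase (-0.53), PHGDH, which opens serine synthesis (-0.80), and CEBPG (-0.67). Glycolysis and hypoxia genes had 1 of 34 higher, the arrestin ARRDC4 (0.62), and 1 lower, PDK1, which inhibits pyruvate dehydrogenase (-0.66; median -0.01). Polyadenylated histone genes had 2 of 17 higher and 3 lower (median -0.11). H2AFZ and H2AFV, the H2A.Z genes, fell by 0.83 and 1.0, H3F3B, an H3.3 gene, fell by 0.46, and HIST1H1C and HIST1H2BK rose by 0.60 and 0.51, but histone genes have near-identical copies among which counting could split reads. ARRDC4 (adjusted p 0.103 to 0.201), IER3 (adjusted p 0.0835 to 0.225), PHGDH (adjusted p 0.0675 to 0.304) and SOX9 (adjusted p 0.0819 to 0.259) lost their calls whichever of the 4 libraries was left out.

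Interferon-stimulated and DNA-sensing genes had 1 of 27 lower, OAS3 (-0.70), and 0 higher (median 0.01). Intraflagellar transport genes had 1 of 19 higher, WDR35 (21 against 3 counts, ratio 10.8, counting interval 3.23 to 56.6; list median 0.10), while IFT57 of the same list stood at 66.4 and 58.4 CPM with sgWRN2, against 57.7 and 57.1 CPM with sgCh2-2. Intermediate filament genes had NEFM and VIM higher of 12 (median 0.51), and epithelial and mesenchymal state genes had VIM of 19 (median 0.03). No member was called among 15 MHC class I genes (median -0.06), 17 MAPK feedback genes (0.14), 22 unfolded protein genes (0.14), 15 heat shock genes (0.08), 30 cholesterol and fatty acid genes (-0.09), 76 cytosolic ribosomal proteins (0.17), 33 ribosome biogenesis and MYC targets (0.02), 23 intestinal markers (0.09), 6 mullerian and ovarian markers (0.19) and 2 leukocyte and endothelial markers (0.32). A gene that misses the threshold in groups of 2 is not shown to be equal.

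The response to sgWRN2 differed from that to sgWRN3. Between the guides 134 of 14199 genes were called (0.944%), 41 higher with sgWRN2 (0.289%) and 93 lower (0.655%). Of the 93 lower, 38 stood on the mitotic lists. These counts rest on single libraries. Without sgWRN2 A, 3 genes were higher and 0 lower, without sgWRN2 B 15 were higher and 2 lower, without sgWRN3 A 19 were higher and 58 lower, and without sgWRN3 B 6 were higher and 2 lower. The mitotic genes among the lower calls were then 0 (sgWRN2 A), 1 (sgWRN2 B), 29 (sgWRN3 A) and 2 (sgWRN3 B), and with the replicate block 19 genes were higher and 24 lower. With sgWRN3 against the same control libraries, 0 genes were called by edgeR's quasi-likelihood test, 262 had an unadjusted p under 0.05, DESeq2 called 9 and limma-voom 0. The 2 contrasts share the sgCh2-2 libraries, so they are given side by side only. The median of the 99 mitotic genes was -0.90 with sgWRN2 and -0.22 with sgWRN3, that of the 82 p53 targets was 0.39 with sgWRN2 and 0.16 with sgWRN3, and that of the 221 mitotic, E2F, replication and repair genes was -0.72 with sgWRN2 and -0.18 with sgWRN3.

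Directly between the guides, KIF20A was lower with sgWRN2 (log2 fold change -0.97 ± 0.12, adjusted p = 0.00514), as were CCNB1 (-0.80), CDC20 (-0.87), ARHGEF39 (-1.02), TMEM133 (-0.90) and TICRR (-0.86). NEFM was higher with sgWRN2 (log2 fold change 3.61 ± 0.29, adjusted p = 0.000459), as were FLG-AS1 (1.20), ZNF596 (0.99), AKAP12 (0.99) and CD55 (0.97). Of the p53 targets 3 passed between the guides, CDKN1A (0.73, adjusted p = 0.0281), TNFRSF10D (0.62) and ABCA12 (0.92). MDM2 (0.54, adjusted p = 0.162), GDF15 (0.83, adjusted p = 0.103) and WRN itself (-0.48) did not. Without sgWRN2 A no gene was called lower, so the lower calls named here were each lost in at least 1 of the 6 fits with a library left out. KIF20A was called in 4 of the 6 (adjusted p 0.00649 to 0.0772), CCNB1, TICRR and TMEM133 in 3 and CDC20 and ARHGEF39 in 2. NEFM and AKAP12 were called in all 6, CD55 in 5, FLG-AS1 in 4, CDKN1A and TNFRSF10D in 3 and ABCA12 and ZNF596 in 2.

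The same guide in OVK18 shares no library with the SW48 comparison. There 113 of 14199 genes were called (0.796%), 76 higher (0.535%) and 37 lower (0.261%). In both lines 38 genes were called (0.268% of those tested), 22 higher in both, 16 lower in both and 0 in opposite directions, which is 8.7% of the SW48 calls and 33.6% of the OVK18 calls. The OVK18 count was 18 without sgCh2-2 A, 23 without sgCh2-2 B, 142 (54 higher and 88 lower) without sgWRN2 A and 41 without sgWRN2 B, and of the 38 shared genes 5 (without sgCh2-2 A), 9 (sgCh2-2 B), 24 (sgWRN2 A) and 13 (sgWRN2 B) were still called there. With the replicate block OVK18 had 38 calls (34 higher and 4 lower) and 11 shared with SW48, without a filter 439 (188 higher and 251 lower) and 109 shared, and with DESeq2 423 and 140 shared. NEFM was among them, with 30.2 and 26.1 CPM with sgWRN2, against 0.660 and 0.619 CPM with sgCh2-2 in OVK18 (log2 fold change 5.45 ± 0.32, adjusted p = 6.87e-06). LAMC1 (0.91 in SW48 and 0.87 in OVK18), AGO2 (0.74 in SW48 and 0.77 in OVK18), PLK2 (0.79 in SW48 and 1.02 in OVK18), TNFRSF10D (0.95 in SW48 and 0.53 in OVK18) and ZNF596 (1.25 in SW48 and 1.03 in OVK18) were higher in both lines. CDC6 (-0.89 in SW48 and -0.79 in OVK18), MCM3 (-0.52 in SW48 and -0.45 in OVK18), NCAPG2 (-0.88 in SW48 and -0.53 in OVK18) and PDK1 (-0.66 in SW48 and -0.79 in OVK18) were lower in both. WRN had 22.0 and 21.0 CPM with sgWRN2, against 32.0 and 39.8 CPM with sgCh2-2 in OVK18 (log2 fold change -0.74 ± 0.16, adjusted p = 0.0658).

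The difference between the lines passed the test for 43 genes (0.303%), 21 with a higher and 22 with a lower log2 effect in SW48. Leaving out 1 library at a time gave 15 to 37. KIF20A (-1.28 in SW48, -0.27 in OVK18, adjusted p of the difference = 0.0226), CCNB1 (-1.13 in SW48 and -0.30 in OVK18, 0.0314) and MKI67 (-1.10 in SW48 and -0.38 in OVK18, 0.0454) were the 3 of 99 mitotic genes that passed, and the mitotic median was -0.90 in SW48 and -0.36 in OVK18, where 1 of the 99 was called. Of the 82 p53 targets TP53INP1 alone passed (0.98 in SW48 and -0.18 in OVK18, 0.0314), with list medians of 0.39 in SW48 and 0.17 in OVK18. AKAP12 (1.01 in SW48 and 0.13 in OVK18), LAMA3 (0.64 in SW48 and -0.35 in OVK18) and MAP2K6, a kinase that activates p38 (0.52 in SW48 and -0.32 in OVK18), rose in SW48 and differed from OVK18. CDKN1A (1.40 in SW48 and 0.64 in OVK18, 0.203) and MDM2 (1.03 in SW48 and 0.19 in OVK18, 0.19) were not shown to differ.

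Large differences came from genes near silent in the controls of one line. BEX4 had 7.14 and 4.59 CPM with sgWRN2, against 0.224 and 0.162 CPM with sgCh2-2 in SW48, and in OVK18, where it is expressed, 39.5 and 29.5 CPM with sgWRN2, against 29.6 and 30.4 CPM with sgCh2-2 (difference 4.63, adjusted p = 0.000426). In the other direction, 30 of the 76 genes called higher in OVK18 stood under 1 CPM in both OVK18 controls, out of 2169 tested genes at such levels (1.38%). Of the 30, 13 passed the test of the difference, and all 13 were at 5 CPM or more in both SW48 controls. The filter on low counts used all 6 groups, so a gene near silent in OVK18 could be tested through its SW48 level. The share at such SW48 levels among the 2169 was not counted, so the SW48 level of the 13 cannot be read as a trait of the risen genes. TES, an actin-associated protein, had 164 and 152 CPM with sgWRN2, against 147 and 158 CPM with sgCh2-2 in SW48 and 0.736 and 0.384 CPM with sgWRN2, against 0 and 0 CPM with sgCh2-2 in OVK18. CCND2, a D cyclin, had 570.3 and 548 CPM with sgWRN2, against 523 and 525 CPM with sgCh2-2 in SW48 and 1.02 and 0.493 CPM with sgWRN2, against 0 and 0.0310 CPM with sgCh2-2 in OVK18, and PROM1, CEP112 and TSC22D3 were among the 13, with differences between the lines of -5.13, -6.24 and -5.52. IFT57 stood at 66.4 and 58.4 CPM with sgWRN2, against 57.7 and 57.1 CPM with sgCh2-2 in SW48 and at 4.38 and 3.95 CPM with sgWRN2, against 0.155 and 0.248 CPM with sgCh2-2 in OVK18 (difference -4.18). EGR1 also differed (-1.49), with 207 and 192 CPM with sgWRN2, against 68.3 and 66.7 CPM with sgCh2-2 in OVK18, and RND3, an atypical small GTPase, was lower with sgWRN2 in OVK18 (-2.04) and not called in SW48 (0.14).

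**Figure D5:**
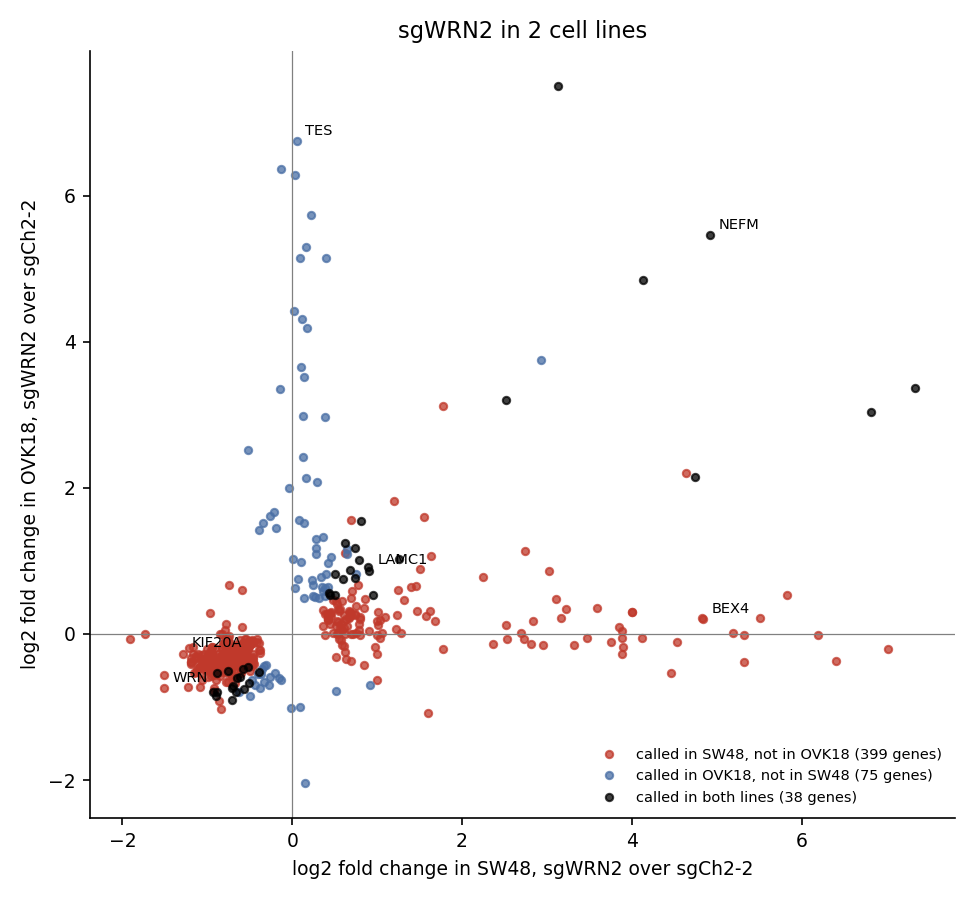
Log2 fold change of sgWRN2 over sgCh2-2 in SW48 (horizontal) and OVK18 (vertical) for genes called in either line. The 38 genes called in both lines (black) lay in the upper right and lower left, and genes of large change in a single line lay along the axes.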

How the data were processed

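Messenger RNA of 12 libraries (6 groups of 2) was sequenced from 100 ng of total RNA with a Kapa mRNA Hyper kit, per the labels' protocols. The authors deposited raw counts per gene, made with bcl2fastq 2.18 and STAR 2.5 on hg19, per the submitters' processing notes. They also deposited a table without a named unit, read here as FPKM because counts divided by it followed transcript length (Spearman rho 0.791 across 10116 genes) and because the submitters' processing notes list Cufflinks 2.2.1. The gene annotation and strand setting are not given in the sources used here. Of 25343 genes, 28 have symbols turned into dates and were not named, and 92 spike-in features at 0 were left out.

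edgeR 4.0.16 (R 4.3.3) was run on the counts after filterByExpr, which left 14199 genes, with TMM factors and a mean for each of the 6 groups. The quasi-likelihood test was robust and had 6 residual degrees of freedom, and genes under a Benjamini-Hochberg adjusted p of 0.05 were called. The contrasts were sgWRN2 minus sgCh2-2 in SW48, sgWRN2 minus sgWRN3, and the sgWRN2 effect in SW48 minus that in OVK18. Values after ± are standard errors, obtained by dividing the log2 fold change by the root of its F. Replicates differed beyond counting error in every group (chi-square per gene 8.35 to 24.2). The alternatives used other scalings and filters, DESeq2 1.42.0, limma 3.58.1 on counts (voom) and on log2(FPKM + 1) or log2(FPKM + 0.1), a replicate block, fewer libraries and each library left out.

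The 44 gene lists and the libraries compared were chosen with earlier results of these data known. Named genes are the 12 highest and 12 lowest called genes of at least 5 CPM, the 8 highest of those under 1 CPM in both controls and the mirror set, up to 4 called members of a list, 5 highest and 5 lowest for each difference, members whose role is described, and WRN, CDKN1A, MDM2, NEFM, EGR1 and IFT57. CYFIP2, H3F3B and the genes given for both lines were named after their values were seen. Some genes that these rules name are not reported here.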

Additional observations from a re-analysis of the deposited data

Results flagged for a closer look

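The effect of sgWRN2 differed between SW48 and OVK18 in 43 genes by edgeR's quasi-likelihood test of the difference with Benjamini-Hochberg adjustment, 22 of them among the genes reported. Values are the log2 effect in SW48 minus that in OVK18. Of 99 mitotic genes 3 passed, with a lower effect in SW48, -1.01 for KIF20A, -0.83 for CCNB1 and -0.73 for MKI67. TP53INP1 (1.16), LAMA3 (0.98), AKAP12 (0.88) and MAP2K6 (0.84) had a higher effect in SW48, and RND3 (2.18) differed, being lower with sgWRN2 in OVK18.

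Genes near 0 in SW48 controls and expressed in OVK18 gave the differences 4.63 for BEX4, 4.64 for NGFRAP1, 4.08 for CBS, 4.16 for FAM101B, 3.94 for HDGFRP3 and 3.47 for WDR35, and BEX1, at 0 counts in SW48 controls, gave a fitted 6.78 that depends on the prior count. Genes near 0 in OVK18 controls and expressed in SW48 gave -6.70 for TES, -6.24 for CEP112, -5.52 for TSC22D3, -5.13 for PROM1, -5.06 for CCND2 and -4.18 for IFT57, and for TES, CEP112 and PROM1, at 0 counts in OVK18 controls, the fitted value also depends on the prior count. EGR1 gave -1.49, with 207 and 192 CPM with sgWRN2, against 68.3 and 66.7 CPM with sgCh2-2 in OVK18.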

How the results depend on the processing

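Of 437 genes called between sgWRN2 and sgCh2-2 in SW48, other settings called 265 with a replicate block, 688 without a filter on low counts, 715 with DESeq2 and 148 to 302 with 1 library left out; 112 were called in all 4 of the last. Between sgWRN2 and sgWRN3, 134 genes became 43 with the replicate block, 334 without a filter, 288 with DESeq2, 34 in the 6 SW48 libraries alone and 3 to 147 with 1 library left out. For the difference between lines, 43 became 17 with the replicate block, 128 without a filter, 23 at a mean of at least 5 CPM, 121 with DESeq2 and 15 to 37 with 1 library left out. The letters A and B were not used to pair libraries: over 10769 genes the B minus A differences of SW48 sgWRN2 and sgCh2-2 correlated at -0.425, although those of the 4 groups other than sgWRN2 correlated with each other at 0.663 to 0.738 and the 2 sgWRN2 groups at 0.689. Crossing the sgWRN2 letters, chosen after seeing the data, gave 1558, 709 and 332 calls. The cause was not tested. The WRN log2 fold change was -1.50 with the block and ran between -1.68 and -1.39 over all settings. The share of higher calls, 36.6%, was 24.6% at a mean of at least 5 CPM, 22.4% and 24.4% on FPKM and 47.8% with the crossed letters. Over 149 named genes and 2515 values of sgWRN2 against sgCh2-2 in SW48, 2222 kept their call and direction, 261 lost the call, 23 gained one and 9 changed sign. These 9 belong to uncalled genes: EGR1 (-0.00758 and -0.00764) on FPKM and, with 1 library left out, PMAIP1 (-0.118 to 0.348), PCNA (-0.144 to 0.0911), ATM (-0.154 to 0.375), ATR (-0.209 to 0.0368) and CDX2 (-0.425 to 0.127). The difference between lines of PROM1 also changed sign on FPKM (0.0209), and IER3, listed there at 0 in SW48, has no FPKM value. Of 124 named genes called, 62 were called in all 4 fits with 1 library left out and 19 in none. Depth limits genes near 0: 9 of the 51 near-silent genes called higher had 0 counts in both controls, so their fitted fold changes depend on the prior count.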
